A study of Homo sapiens with 6 samples.

Results

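The miR-30 family was followed after silencing of PRKRA in RMUG-S-ip1, a cell line of human mucinous ovarian cancer. The family was taken as the 5 guide-strand miRNAs miR-30a-5p, miR-30b-5p, miR-30c-5p, miR-30d-5p and miR-30e-5p, found by name among 177 named miRNAs and read by accession among 800 miRNA rows. All 5 were found, and all 5 had values above the assay floor in all 6 samples. Cells had received an siRNA against PRKRA (siPRKRA, 3 libraries) or a control siRNA (3 libraries), both by lipid transfection. Total RNA, 100 ng per sample, was counted with the NanoString nCounter miRNA assay, which captures each miRNA with its own probe and counts colour-coded reporters without amplification. The labels number the replicates but tie none to a separate culture, so the p-values may measure technical spread only.

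PACT, the product of PRKRA, binds double-stranded RNA, accompanies Dicer and can also activate the kinase PKR. Dicer cuts the loop off a precursor hairpin, and 1 arm of the duplex that is left guides an Argonaute protein to mRNAs, mainly through the seed near its 5′ end. The miR-30 family is known for restraining epithelial-to-mesenchymal transition, with the transcription factor SNAI1 among its targets. In these bulk samples a change in the number of cells that express a miRNA and a change in the amount per cell cannot be told apart. The labels could not be checked against the targeted gene, since PRKRA mRNA was not analysed here.

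The mature strands show how close the members are. The 3 sequences below are from RefSeq (GRCh38.p14), 5′ to 3′, with the seed, bases 2 to 8, in capitals.
miR-30a-5p: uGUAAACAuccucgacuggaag
miR-30c-5p: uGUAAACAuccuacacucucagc
miR-30e-5p: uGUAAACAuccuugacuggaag
All 3 had the same seed, which defines the family. miR-30a-5p and miR-30e-5p were identical at 21 of 22 positions and differed by C13U, counted from 1 at the 5′ end. miR-30a-5p and miR-30c-5p were identical at 17 of 22 positions, and their first difference was C13A. miR-30b-5p and miR-30d-5p, known to share that seed, complete the family.

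The family is encoded in 3 pairs of neighbouring genes, 2 of which are shown here. MIR30A (chr6:71403551-71403621, minus strand) and MIR30C2 (chr6:71376960-71377031, minus strand) start 26.6 kb apart and lie inside no other annotated gene of the reference table. MIR30E (chr1:40754355-40754446, plus strand) and MIR30C1 (chr1:40757284-40757372, plus strand) start 2.93 kb apart within the span of NFYC, which encodes a subunit of the transcription factor NF-Y. The 4 hairpins below are shown because Dicer acts on them and because 2 of them yield 1 mature strand. Capitals mark the 5p and 3p arms.
MIR30A: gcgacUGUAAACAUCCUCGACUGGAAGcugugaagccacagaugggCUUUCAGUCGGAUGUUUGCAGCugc
MIR30C2: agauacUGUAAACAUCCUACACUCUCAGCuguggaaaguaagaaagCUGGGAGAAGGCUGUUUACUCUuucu
MIR30E: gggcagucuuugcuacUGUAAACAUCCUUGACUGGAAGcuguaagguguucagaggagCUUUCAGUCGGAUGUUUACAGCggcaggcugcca
MIR30C1: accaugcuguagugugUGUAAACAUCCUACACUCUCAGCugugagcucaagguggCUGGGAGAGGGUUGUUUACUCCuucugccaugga
The 5p arms of MIR30C1 and MIR30C2 are the same 23 bases, so the miR-30c-5p value sums over both loci. Of the 6 3p arms on the list, 0 are named in the deposited comparison table, and no value is given for them.

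A value here is the authors' deposited signal, a count above background multiplied by 1 factor per library. The factors were 0.231, 1.09 and 0.469 for siPRKRA replicates 1, 2 and 3, against 1.496, 1.525 and 1.315 for control siRNA replicates 1, 2 and 3, so equal values rested on more counts in siPRKRA replicates 1 and 3. Before the factor the miRNA rows summed to 142683 to 305261 counts above background in siPRKRA libraries, against 51641 to 56192 in control siRNA libraries. siPRKRA replicate 2 stood apart: the entry miR-4454 made up 62.6% of its miRNA signal, against 3.28% to 6.70% in the other 5 libraries. Across the 106 tested miRNAs it correlated with them at r = 0.833 to 0.884, and they with each other at 0.882 to 0.985. Epithelial markers fitted the labelled cell type in part: miR-200c-3p had 4001 to 4835 in siPRKRA and 5391 to 6410 in control siRNA libraries, whereas miR-200a-3p and miR-429 were at the floor in 4 of 6 libraries each.

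MIR30B and MIR30D start 4.36 kb apart on chromosome 8 within the span of ZFAT, a zinc finger gene. miR-30b-5p had the highest value of the family in every library. It was at 520, 560 and 602 in siPRKRA replicates 1, 2 and 3, against 630, 694 and 629 in control siRNA replicates 1, 2 and 3. All 3 siPRKRA libraries lay below all 3 control libraries. Means were 561 ± 41.0 in siPRKRA and 651 ± 37.4 in control siRNA libraries (SD, n = 3 each). On the log2(value + 1) scale, which understates changes of low values, the fold change of siPRKRA over control siRNA was -0.22 ± 0.10 (SE), with a 95% interval of -0.46 to 0.03 and a limma adjusted p of 0.299.

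miR-30d-5p, its partner at the same locus, had the lowest value of the family in every library. It was at 54.4, 20.8 and 58.1 in siPRKRA replicates 1, 2 and 3, against 30, 33.7 and 26.8 in control siRNA libraries. siPRKRA replicates 1 and 3 lay above all control libraries and replicate 2 below them, so the groups overlapped. The log2 fold change was 0.42 ± 0.45 (SE), with a 95% interval of -0.67 to 1.504 (limma adjusted p = 0.636). It was 0.88 ± 0.30 without siPRKRA replicate 2 (SE; limma adjusted p = 0.119), 0.21 without siPRKRA replicate 1 (limma adjusted p = 0.853) and 0.16 without siPRKRA replicate 3 (limma adjusted p = 0.866).

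The miR-30d-5p values rested on few counts. Before the factor they were 235, 19.2 and 124 counts above background in siPRKRA replicates 1, 2 and 3, against 20.1, 22.1 and 20.4 in control siRNA libraries. The exact Poisson 95% interval of the 19.2 counts ran from 11.6 to 29.9, and that of the 20.1 counts from 12.3 to 31.0. These intervals cover counting error only and leave out the error of the subtracted background. The 2 high libraries were also those with the lowest factors, and the part of depth in the result was not tested.

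**Figure D1:**
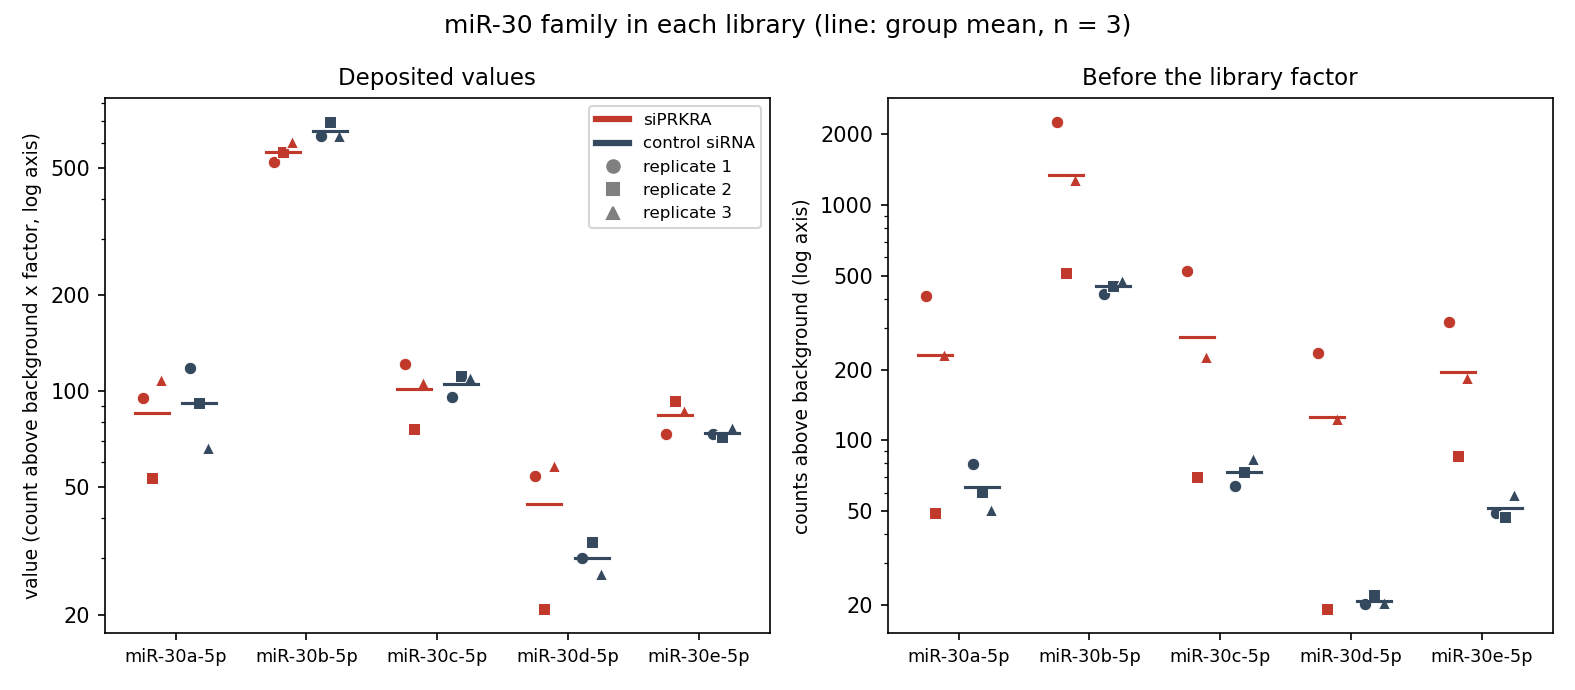
Values of the 5 members in each library (left, deposited values; right, counts above background before the library factor; both log axes), siPRKRA in red left of control siRNA in blue, with symbols for replicates and a line at each group mean. Before the factor siPRKRA replicates 1 and 3 lie above every control library for all 5 members; after it the 2 groups overlap for 4 members, and miR-30b-5p lies lower in all 3 siPRKRA libraries.

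miR-30a-5p, from the chromosome 6 pair, had 95.2, 53.4 and 108 in siPRKRA replicates 1, 2 and 3, against 118, 91.7 and 66.3 in control siRNA replicates 1, 2 and 3. The groups overlapped, with siPRKRA replicate 2 lowest of the 6. Its log2 fold change was -0.13 ± 0.34 (SE), with a 95% interval of -0.96 to 0.71 (limma adjusted p = 0.856). The sign turned without siPRKRA replicate 2, at 0.18 ± 0.27 (SE), and without control siRNA replicate 1, at 0.07. Control libraries had a coefficient of variation of 28.2%, against 12.6% from counting error alone at their mean of 63.2 counts above background. The 12.6% leaves out the error of the subtracted background.

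miR-30c-5p, made from loci on chromosomes 1 and 6, had 122, 76.2 and 106 in siPRKRA replicates 1, 2 and 3, against 95.8, 112 and 110 in control siRNA replicates 1, 2 and 3. siPRKRA replicate 1 lay above and replicate 2 below all control libraries. Its log2 fold change was -0.08 ± 0.21 (SE), with a 95% interval of -0.59 to 0.43 (limma adjusted p = 0.856). Without siPRKRA replicate 2 it was 0.11 ± 0.16 (SE).

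miR-30e-5p, which shares the NFYC locus with MIR30C1, had 73.3, 93.5 and 86.8 in siPRKRA replicates 1, 2 and 3, against 73.4, 71.9 and 76.8 in control siRNA replicates 1, 2 and 3. siPRKRA replicates 2 and 3 lay above all control libraries and replicate 1 within their range. It was the member for which siPRKRA replicate 2 was the highest library. Its log2 fold change was 0.18 ± 0.16 (SE), with a 95% interval of -0.22 to 0.58 (limma adjusted p = 0.533). It was 0.11 without siPRKRA replicate 2 and 0.28 without siPRKRA replicate 1. Its control libraries differed by a coefficient of variation of 3.39%. Counting error alone gives 13.9% at their mean of 51.5 counts above background, which leaves out the error of the subtracted background.

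Among the 5 members, 0 passed an adjusted p of 0.05 in either direction, and 0 of all 106 tested miRNAs did (0%) in limma. In limma-voom, run on recovered counts, the number was 0 as well. At an unadjusted limma p under 0.05 there were 0 members and 17 of all tested miRNAs (16%). Estimates were higher in siPRKRA for 2 members and lower for 3, with a median log2 fold change of -0.08, against 44 higher, 62 lower and a median of -0.06 over all tested miRNAs. 1 of the 5, miR-30b-5p, did not overlap between the groups, against 27.4% of all tested miRNAs. It was lower in siPRKRA, as were 15.1% of all tested miRNAs without overlap, while 12.3% were higher.

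**Figure D2:**
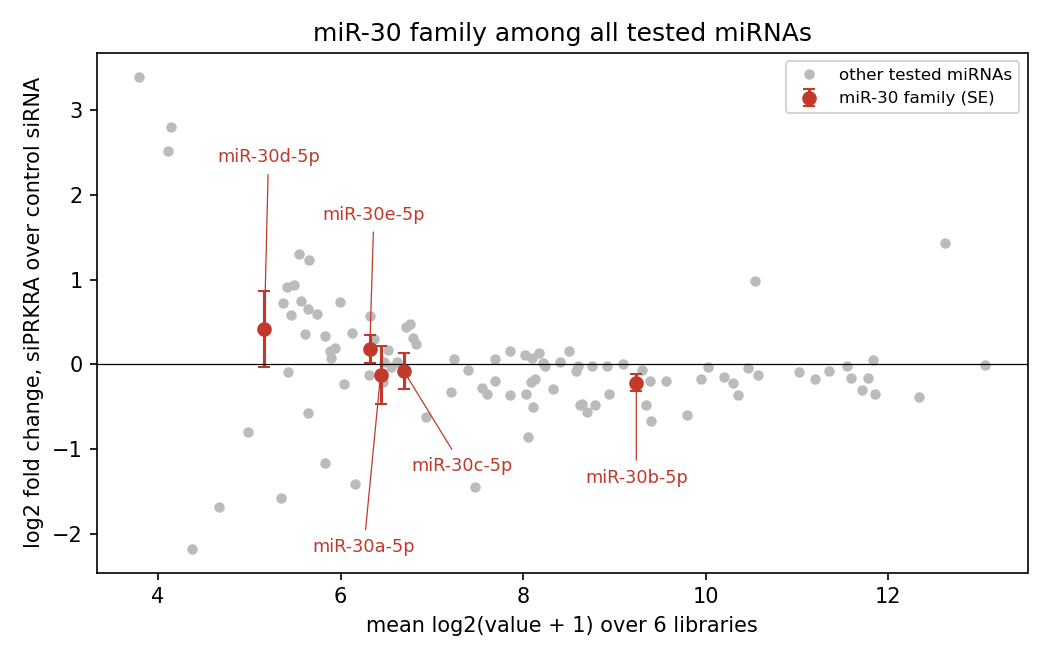
Log2 fold change of siPRKRA over control siRNA (vertical axis) against the mean log2(value + 1) over 6 libraries (horizontal axis) for the 106 tested miRNAs, with the 5 miR-30 members in red and their SE. The members lie between -0.22 and 0.42, and the other tested miRNAs range from -2.18 to 3.40.

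The order of the values within the family was the same at both ends in all 6 libraries, with miR-30b-5p highest and miR-30d-5p lowest. miR-30b-5p made up 60.1% to 69.7% of the summed family value in siPRKRA and 66.5% to 69.2% in control siRNA libraries. miR-30d-5p made up 2.59% to 6.28% in siPRKRA and 2.95% to 3.36% in control siRNA libraries. miR-30a-5p, miR-30c-5p and miR-30e-5p changed places between libraries, and their ranges overlapped. Each miRNA has a probe of its own, so this is an order of values and not of molecules.

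The summed family value was 865, 804 and 962 in siPRKRA replicates 1, 2 and 3, against 947, 1003 and 909 in control siRNA replicates 1, 2 and 3. The groups overlapped, with means of 877 ± 79.5 in siPRKRA and 953 ± 47.5 in control siRNA libraries (SD, n = 3 each). The log2 difference was -0.12, and without miR-30b-5p it was 0.05. As a share of all miRNA signal the family made up 1.22%, 0.323% and 1.42% in siPRKRA libraries, against 1.18%, 1.26% and 1.21% in control siRNA libraries. With miR-4454 and miR-720 left out of the total, these shares were 1.27%, 1.16% and 1.51% against 1.23%, 1.37% and 1.30%, so the low share in siPRKRA replicate 2 came with those 2 entries.

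Ratios between members within a library do not depend on its factor, apart from the pseudocount. They were used to ask whether members that share a locus moved together. Only miR-30b-5p over miR-30d-5p asks this for 1 locus. The other such pairs hold miR-30c-5p, whose value sums over both its loci. Exact permutation tests, two-sided, were run on all 10 pairs, and 3 against 3 libraries allow no p under 0.1. None passed, with adjusted p from 0.875 to 1 over the 10 pairs. One pair, miR-30b-5p over miR-30e-5p, did not overlap between the groups, where 28.6% of all 5565 pairs of tested miRNAs did not.

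For the chromosome 8 pair, the linear ratio of miR-30b-5p to miR-30d-5p was 9.42, 25.7 and 10.2 in siPRKRA replicates 1, 2 and 3, against 20.3, 20.02 and 22.7 in control siRNA libraries. The ratio was lower than in every control library in siPRKRA replicates 1 and 3 and higher in replicate 2. The mean log2 ratio was 3.76 ± 0.81 in siPRKRA and 4.39 ± 0.10 in control siRNA libraries (SD, n = 3 each; exact permutation p = 0.4, adjusted 0.875). The log2 difference was -0.63 over all libraries, -1.10 without siPRKRA replicate 2, -0.37 without siPRKRA replicate 1 and -0.43 without siPRKRA replicate 3.

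For the chromosome 6 pair, the ratio of miR-30a-5p to miR-30c-5p was 0.784, 0.705 and 1.02 in siPRKRA replicates 1, 2 and 3, against 1.23, 0.824 and 0.608 in control siRNA libraries. The siPRKRA ratios lay inside the control range, with a log2 difference of -0.04 (exact permutation p = 0.9, adjusted 1). It was 0.07 without siPRKRA replicate 2 and 0.22 without control siRNA replicate 1.

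For the chromosome 1 pair, the ratio of miR-30e-5p to miR-30c-5p was 0.605, 1.23 and 0.817 in siPRKRA replicates 1, 2 and 3, against 0.768, 0.648 and 0.703 in control siRNA libraries. siPRKRA replicates 2 and 3 lay above all control libraries, and replicate 1 lay below them. The log2 difference was 0.26 (exact permutation p = 0.6, adjusted 0.875), -0.0033 without siPRKRA replicate 2 and 0.51 without siPRKRA replicate 1.

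The pair that did not overlap crosses 2 loci. The ratio of miR-30b-5p to miR-30e-5p was 7.01, 5.94 and 6.87 in siPRKRA replicates 1, 2 and 3, against 8.48, 9.54 and 8.10 in control siRNA libraries. All 3 siPRKRA ratios lay below all control ratios, with a log2 difference of -0.40 (exact permutation p = 0.1, adjusted 0.875).

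**Figure D3:**
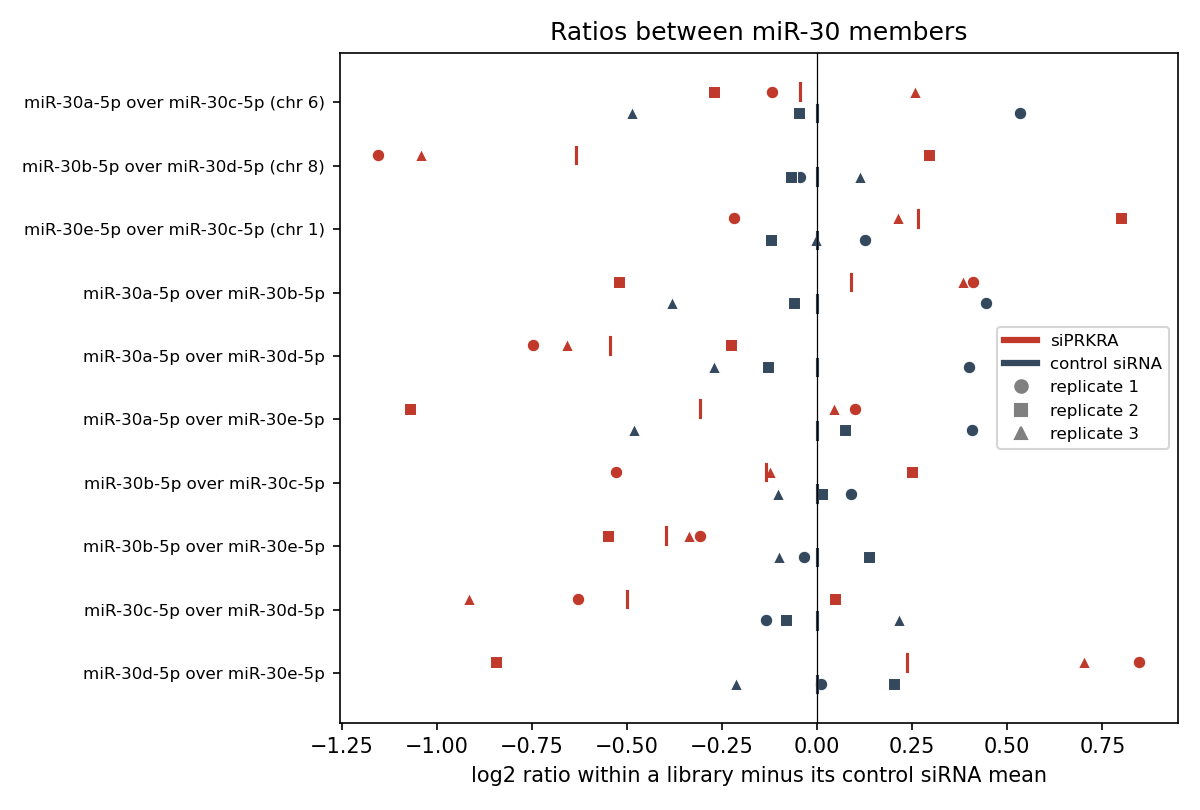
Log2 ratio of each pair of members within a library, minus the mean of the 3 control siRNA libraries for that pair (horizontal axis), with siPRKRA in red above control siRNA in blue, symbols for replicates and a line at each mean. The pairs that share a locus stand at the top with their chromosome, and miR-30c-5p sums over both its loci. For miR-30b-5p over miR-30d-5p, siPRKRA replicate 2 (squares) lies on the other side of the control libraries from siPRKRA replicates 1 and 3.

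siPRKRA replicate 2 bore on several of these ratios. Without it 6 of the 10 member pairs did not overlap between the groups, and 53.5% of all pairs of tested miRNAs did not either. Leaving out a library can only raise these numbers. With any other library left out, 1 or 2 member pairs and 33.2% to 37.5% of all pairs did not overlap. Without siPRKRA replicate 2, 4 of the 6 were the pairs that hold miR-30d-5p. Log2 differences were -0.70, -1.10 and -0.77 for miR-30a-5p, miR-30b-5p and miR-30c-5p over miR-30d-5p, and 0.77 for miR-30d-5p over miR-30e-5p. These 4 pairs share 1 member and are not independent. That member had a mean of 20.8 counts above background in control siRNA libraries. The smallest exact permutation p that 2 against 3 libraries allow is 0.2, and all 6 pairs had it.

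The profiles of the members over the 6 libraries were not close to each other. Likeness was measured as the root mean square difference of log2(value + 1) after centring each miRNA on its own mean. Seen from each member among 105 other tested miRNAs, the nearest member ranked 22nd for miR-30a-5p (miR-30c-5p), 29th for miR-30b-5p (miR-30e-5p), 31st for miR-30c-5p (miR-30b-5p), 6th for miR-30d-5p (miR-30a-5p) and 22nd for miR-30e-5p (miR-30b-5p). miR-30d-5p thus had miR-30a-5p and miR-30c-5p (8th) among its 10 nearest. These ranks are not distances and do not make them the closest members. They differed from miR-30d-5p by 0.376 and 0.394 log2 units, against 0.225 between miR-30b-5p and miR-30e-5p. The partner of miR-30d-5p at the same locus, miR-30b-5p, ranked 59th, with r = -0.25 between them. Over these 6 libraries r was 0.69 between miR-30a-5p and miR-30d-5p and 0.72 between miR-30c-5p and miR-30d-5p. It was -0.73 between miR-30c-5p and miR-30e-5p, which share siPRKRA replicate 2 as their lowest and highest library.

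The median profile of the members was 0.15, -0.42 and 0.14 in siPRKRA replicates 1, 2 and 3, against -0.10, 0.10 and -0.04 in control siRNA replicates 1, 2 and 3, in log2 units around each member's mean. Its main feature was the low value in siPRKRA replicate 2. That library was the lowest for miR-30a-5p, miR-30c-5p and miR-30d-5p only. It was the highest for miR-30e-5p, and for miR-30b-5p it lay between siPRKRA replicates 1 and 3. Nearest to the median profile among 101 other tested miRNAs were miR-182-5p, miR-93-5p, miR-100-5p, miR-29c-3p and miR-15a-5p. Their root mean square differences from it were 0.068 to 0.134 log2 units. miR-182-5p had 113, 69.7 and 97.1 in siPRKRA replicates 1, 2 and 3, against 88.3, 102 and 91.2 in control siRNA libraries. None of these 5 passed, at limma adjusted p from 0.475 to 0.949.

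Of 8 other miRNAs known for keeping the epithelial state, 5 were tested and 0 passed in either direction, with 1 higher and 4 lower estimates and a median log2 fold change of -0.21. Among them miR-205-5p, which with the miR-200 family represses ZEB1 and ZEB2, stood at -0.08 ± 0.11 on the log2 scale (SE; limma adjusted p = 0.727). miR-34a-5p, a target of p53, stood at -0.21 ± 0.17 (SE; limma adjusted p = 0.489). miR-141-3p and miR-200c-3p of 1 shared transcript had -0.46 ± 0.18 and -0.39 ± 0.13 (SE, limma adjusted p = 0.265 for both). They were the 2 of the 5 with an unadjusted limma p under 0.05, against 16% of all tested miRNAs. Both were lower in siPRKRA without overlap between the groups, as were 15.1% of all tested miRNAs. miR-200b-3p, of the same family, had the higher estimate, 0.37 ± 0.30 (SE; limma adjusted p = 0.489).

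The sign of the family's estimates depended on the scaling of the libraries, though not on it alone. Median-of-ratios scaling kept the sign of all 5 members, from -0.15 for miR-30b-5p to 0.48 for miR-30d-5p. With the miRNA total without miR-4454 and miR-720 only miR-30a-5p (0.00060) and miR-30c-5p (0.045) turned. Both also turned at the deposited scaling without siPRKRA replicate 2 (0.18 and 0.11). With the graded control probes of the assay as the scale, all 5 members had a higher estimate in siPRKRA, from 1.45 for miR-30b-5p to 2.04 for miR-30d-5p, and the median of all tested miRNAs was 1.61. In that setting 22 of 106 miRNAs passed, all higher (20.8%), and 0 members did (limma adjusted p from 0.0563 to 0.0902). With the 5 mRNA rows as the scale all 5 had a lower estimate, from -0.78 for miR-30b-5p to -0.11 for miR-30d-5p, and the median of all tested miRNAs was -0.62. Relative to that median miR-30b-5p lay at -0.15 and miR-30d-5p at 0.51 with the mRNA rows, against -0.16 and 0.48 in the deposited scaling. Rescaling a library moves its miRNAs by almost the same amount, so this likeness is fixed by the arithmetic.

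**Figure D4:**
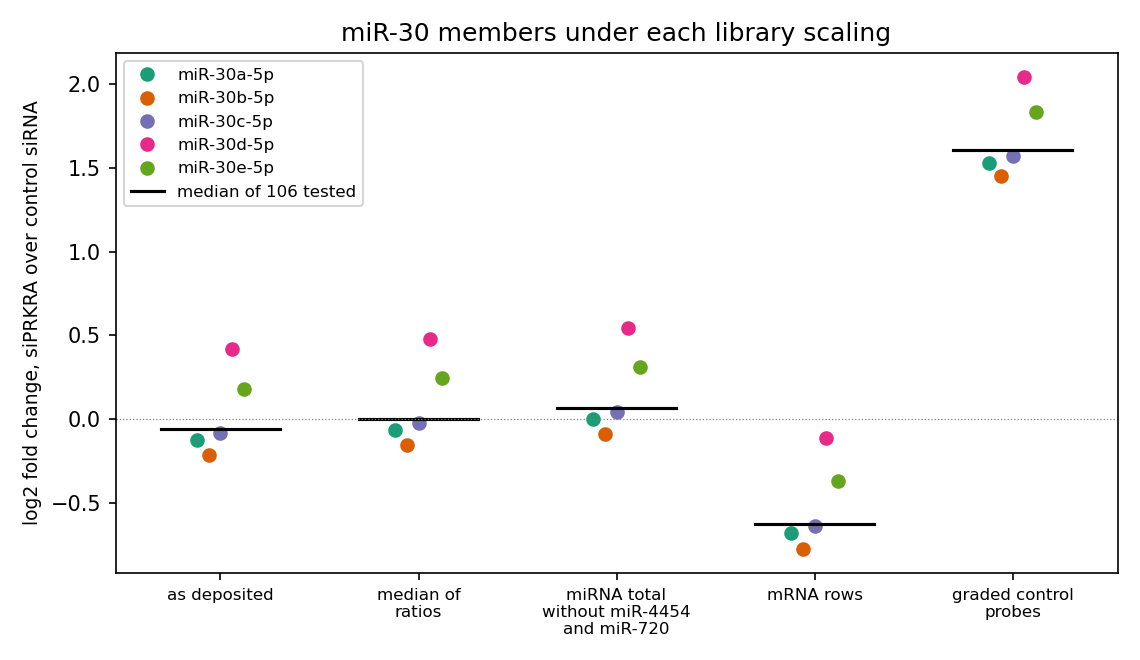
Log2 fold change of siPRKRA over control siRNA for the 5 members under the deposited scaling and 4 other library scalings, with a black bar at the median of the 106 tested miRNAs. All members lie above 0 with the graded control probes (1.45 to 2.04) and below 0 with the mRNA rows (-0.78 to -0.11), and miR-30d-5p lies above the median of all tested miRNAs in both, by 0.44 and 0.51.

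In the authors' deposited table the 5 members had adjusted p values of 0.885, 0.452, 0.874, 0.703 and 0.567 for miR-30a-5p, miR-30b-5p, miR-30c-5p, miR-30d-5p and miR-30e-5p. That table used a rank test for miR-30b-5p and a parametric test for the other 4. The log2 levels of miR-30b-5p in the authors' deposited table, 9.13 for siPRKRA and 9.30 for control siRNA, are medians, and those of the other 4 members are means. The fold change column of the authors' deposited table, 1.09 for miR-30d-5p and -1.02 for miR-30b-5p, is a signed ratio of log2 levels and cannot be read as a linear fold change.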

How the data were processed

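The signal per probe and sample was deposited by the authors in a table of 822 rows, and the same signal as log2 for 800 miRNA rows was deposited by the authors in another, equal within 0.000234 on the linear scale. A table deposited by the authors gives p-values, log2 levels and a signed ratio of these, a score, for 177 miRNAs. The authors' software, background rule and scaling probes were not given in the sources used. The factor of each library was recovered from the steps between values (at least 98.6% whole within 0.1 in each library), and value over factor gave the counts above background.

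With limma 3.58.1 (R 4.3.3) a linear model with group as its term and a trended prior was fitted to log2(value + 1) of the 106 miRNAs that reached 30 in 3 or more of the 6 libraries, with Benjamini-Hochberg adjustment over all 106. The design allowed for counts; no deposited column held them, so limma was used. Ratios were compared by exact permutation. The fit and the factor recovery were tested on simulated data. Samples were grouped by their titles. Members and lists, and the rule for the miRNAs named (the members, their 3p arms, the 5 nearest profiles, the epithelial list and the dominant entries miR-4454 and miR-720), were chosen with earlier results of these data known. Of markers of other cell types, miR-144-3p (blood) had 1.09 to 39.4 in siPRKRA and 6.07 to 151 in control siRNA libraries, endothelial miR-126-3p had 161 to 216 and 214 to 229, and 9 further blood, muscle, liver and neuron markers are not named in the files used. Alternatives were 4 scalings, 2 filters, pseudocount 10, limma-voom, no trend, 20 counts of background added back, a replicate block and each library left out. Scripts ran in Python 3.11.15 with scipy 1.17.1, numpy 2.4.6, matplotlib 3.10.9 and pandas 2.3.3. Sequences and gene spans are from RefSeq (GRCh38.p14).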

Additional observations from a re-analysis of the deposited data

How the results depend on the processing

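Of the members, 0 passed in any of the 17 alternatives, and only 2 of them were tested at a value of at least 100. The count of changed miRNAs was 22 with the graded control probes, 1 with the mRNA rows, 1 with no trend and 635 with no filter. With no filter most rows sit at the floor, which was 1 to 1.09 in siPRKRA and 1.32 to 1.53 in control siRNA libraries. Rows at the floor in all 6 libraries thus differ between the groups by construction. Leaving out single libraries gave 0 to 4, with 2 without control siRNA replicate 3 and 4 without siPRKRA replicate 2. Signs turned for miR-30a-5p (1.53), miR-30b-5p (1.45) and miR-30c-5p (1.57) with the graded control probes, for miR-30d-5p (-0.11) and miR-30e-5p (-0.37) with the mRNA rows, and for miR-30d-5p (-0.089) and miR-30e-5p (-0.11) with 20 counts added back. They also turned for miR-30a-5p and miR-30c-5p in limma-voom (0.013 and 0.017), with the miRNA total without miR-4454 and miR-720 (0.00060 and 0.045) and without siPRKRA replicate 2 (0.18 and 0.11), and for miR-30a-5p without control siRNA replicate 1 (0.07). With a library left out miR-30a-5p ranged from -0.34 to 0.18, miR-30c-5p from -0.22 to 0.11, miR-30b-5p from -0.27 to -0.16, miR-30d-5p from 0.16 to 0.88 and miR-30e-5p from 0.11 to 0.28. The number of member pairs without overlap was 2 with pseudocount 10, 0 with 20 counts added back and 1 to 6 with a library left out, of which 6 without siPRKRA replicate 2. The log2 difference of miR-30a-5p over miR-30c-5p turned to 0.07 without siPRKRA replicate 2 and 0.22 without control siRNA replicate 1, and that of miR-30e-5p over miR-30c-5p to -0.0033 without siPRKRA replicate 2; with a library left out they ranged from -0.29 to 0.22 and from -0.0033 to 0.51. The summed value differed by 1.55 with the graded control probes, -0.69 with the mRNA rows, 0.0050 with the miRNA total and -0.23 with 20 counts added back, and by -0.19 to -0.06 with a library left out, against -0.12. The 20 counts are a round setting, since the subtracted background is unknown; scaled by larger factors in control siRNA libraries than in siPRKRA libraries, they lower the estimates of all 5 members and compress the ratios between members by construction, so they bear on no cause. Apart from the floor rows with no filter, the cause of the other moves was not tested. The deviations of same-numbered samples from their group means correlated at r = 0.17, -0.09 and -0.07. With 3 libraries per group and siPRKRA replicate 2 standing apart, these values cannot show whether the numbers pair the samples. The replicate block gave 0 changed miRNAs and 0 changed members, as without it. Depth limits miR-30d-5p most, at about 20 counts in 4 of 6 libraries.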
